A study of Mus musculus with 31 samples.

Results

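The RNA of CD11b+ microglia isolated from the brain was compared with that of the cortical tissue in APP/PS1 mice with wild-type PLCG2 (A+/wt/wt). The libraries were those labelled as female, A+ and wild type for PLCG2 in both sample types, which are 8 of the 31 libraries of the study, 4 CD11b+ preparations (mice 331, 367, 375 and 380) and 4 of temporo-occipital cortex (mice 236, 257, 259 and 329). All of these mice were females of 13 months on the C57Bl/6J background. Their transgenes, expressed from the prion protein promoter of the mouse, encode Swedish-mutant APP of mixed mouse and human sequence and human PS1 that lacks exon 9, and none of these mice had the PLCG2-P522R knock-in. In the same comparison of A+/ki/ki mice, which is given beside the first at the end, 4 CD11b+ preparations and 4 cortices of female APP/PS1 mice of the same age with the knock-in on both alleles were used. All values below are in the order of the mouse numbers given here.

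CD11b is the alpha chain of complement receptor 3, which microglia, macrophages, monocytes, neutrophils and natural killer cells carry on their surface. The mice were perfused to wash out blood. To isolate CD11b+ cells, the brain was cut and digested with enzymes, and cells that bound magnetic beads against CD11b were held on a column, whereas the cortex was snap-frozen and homogenized as a whole. Microglia are the resident macrophages of the brain. They depend on CSF1R signalling and TGF-beta, survey the tissue through fractalkine and purinergic receptors, and around amyloid plaques take on a disease-associated (DAM) state in which TREM2, its adaptor TYROBP and downstream of them SYK and PLCG2 are active. The brain region, the dissociation, the RNA extraction kit, the batch tag in the sample names (b2 for CD11b+, none for cortex) and the mice differ together with the sample type, so their parts in any difference cannot be told apart. In bulk RNA, moreover, fewer cells of a type and less RNA per cell cannot be told apart.

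The CD11b+ libraries held 18918255 to 23022542 counts and the cortical libraries 25226544 to 35834785. Levels are given in CPM, the counts of a gene scaled to a common library total after TMM normalization, and differences as the log2 fold change (log2FC) of CD11b+ over cortex with its standard error. Of 18541 genes tested, 6996 (37.7%) were higher and 7447 (40.2%) lower in CD11b+ preparations at an adjusted p under 0.05 in edgeR, and 2827 (15.2%) were higher and 3107 (16.8%) lower by 4-fold or more. In 13332 genes (71.9%) the difference was called and the groups did not overlap. The median log2FC of all genes tested was -0.06. Since more than 3 in 4 genes differed, a gene list is described by its counts and its median beside these values, and a gene is called higher or lower below where it passed that threshold. With the library totals alone in place of TMM, the median of all genes shifted by -0.37 and 37.3% of the called genes were higher, against 48.4% with TMM, so differences within about this shift of 0 depend on the scaling. Among lincRNAs 205 of 723 tested were higher and 351 lower (median log2FC -0.73), while among processed pseudogenes 257 of 539 were higher and 88 lower (median 0.79), whose counts can hold reads of the parent genes.

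The label was checked first on the selected antigen. Itgam, which encodes CD11b (chr7:128062640-128118491, plus strand), was 394, 568, 437 and 457 CPM in the CD11b+ preparations and 12.5, 16.9, 10.6 and 9.93 CPM in cortex, 37.2-fold higher (log2FC 5.22 ± 0.21, adjusted p = 5.38e-09). All 13 markers of homeostatic microglia and all 14 general myeloid genes were higher by 4-fold or more without overlap between the groups, as were 14.9% of all genes tested, with median log2FC of 4.72 and 4.69. The summed homeostatic markers were 15320, 25050, 21830 and 22010 CPM in CD11b+ preparations and 741, 887, 734 and 702 CPM in cortex, so that mouse 331 was lowest among the CD11b+ preparations and mouse 367 highest. The CD11b+ libraries thus carried the markers of their label, but markers of other cells were present as well, as described below, and the sum of no marker list was 0 in any of them.

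**Figure D1:**
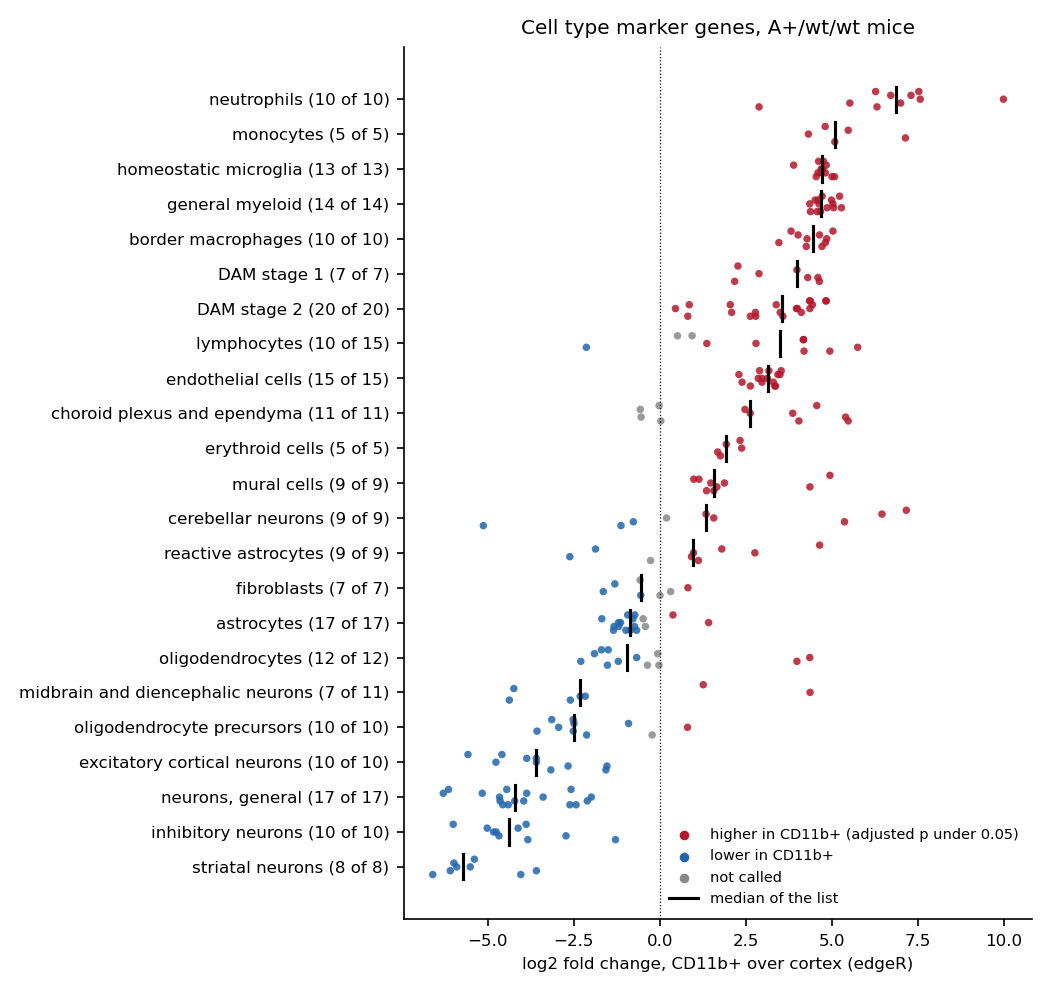
Each point is the log2 fold change of 1 marker gene, CD11b+ over cortex (x axis, edgeR), for 23 cell type lists (y axis, with the number of members tested of those listed), and black bars are list medians. Immune and vascular lists lie to the right, those of general, excitatory, inhibitory and striatal neurons to the left, and the oligodendrocyte list spreads from -2.30 to 4.35. The point farthest to the right is Retnlg, which had no counts in cortex, so that its fitted value is no measure of size.

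The homeostatic markers formed a narrow band, from 3.88 ± 0.21 for Sall1, a transcription factor of microglial identity, to 5.07 ± 0.20 for Csf1r, the receptor for CSF1 and IL-34. Csf1r was 3728, 5976, 5086 and 5679 CPM in CD11b+ preparations and 147, 178, 151 and 131 CPM in cortex. Cx3cr1, the fractalkine receptor, was 28-fold higher. For P2ry12, an ADP receptor that guides microglial processes, the CD11b+ preparations had 879, 1611, 1390 and 1251 CPM and cortex 48.9, 62.3, 43.7 and 43.8 CPM. Ctss, a lysosomal protease, had the largest log2FC of the general myeloid genes (5.27 ± 0.19) and Spi1, which encodes the myeloid transcription factor PU.1, the smallest (4.35 ± 0.15). Exons of Csf1r, Cx3cr1 and P2ry12 overlap genes on the other strand, and reads of such pairs cannot be separated in counts made without strand.

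Among the 7480 genes whose mean in CD11b+ preparations was 20 CPM or more, 53 had a log2FC above that of Csf1r, the highest of the homeostatic band. These included 3 chemokines, 3 neutrophil genes, 3 genes of the MHC list, 3 of the Toll-like receptor and inflammasome list, 2 immediate early genes and 2 general myeloid genes, but also Cbln3 of cerebellar granule cells and Ttr of the choroid plexus. The largest rise was in Tnf, the gene of an inflammatory cytokine, at 55.5, 76.2, 89.7 and 95.5 CPM in CD11b+ preparations and 0.195, 0.0356, 0 and 0.126 CPM in cortex (log2FC 9.56 ± 0.37). Zfp36, which encodes an RNA-binding protein that destabilizes Tnf mRNA, was 1137, 1446, 1168 and 1326 CPM and 5.99, 7.59, 4.92 and 4.94 CPM, respectively (217-fold, adjusted p = 1.9e-09). Further large rises were those of the chemokine gene Ccl4 (log2FC 7.55 ± 0.19), the cytokine gene Il1b (7.33 ± 0.30), the G-protein regulator Rgs1 (7.26 ± 0.30) and the stress-induced transcription factor Atf3 (7.15 ± 0.22). Absence of overlap between the groups was a condition for naming these 6 genes, so it is no finding about them.

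**Figure D2:**
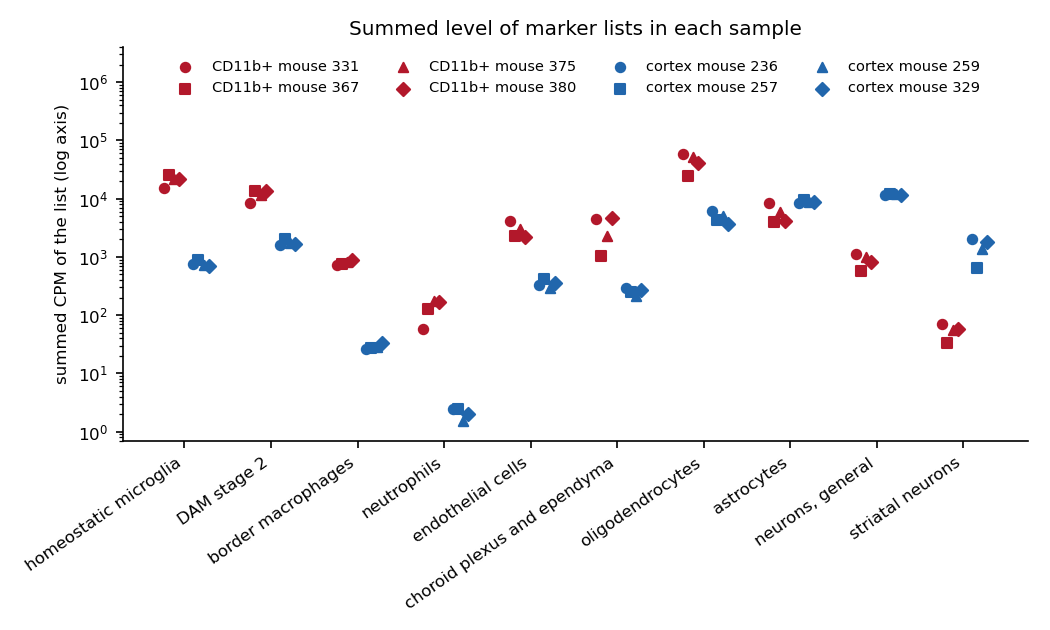
Summed CPM of 10 marker lists (log y axis) in each of the 4 CD11b+ preparations (red) and 4 cortices (blue), with a symbol for each mouse; symbols do not pair mice. CD11b+ mouse 331 is lowest for homeostatic microglia and highest for oligodendrocytes, astrocytes, neurons and endothelial cells, and only the astrocyte list overlaps between sample types.

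Markers of other CD11b-bearing cells were higher too, as were those of some cells that do not carry CD11b. All 10 border macrophage markers were higher (median log2FC 4.45), among them Mrc1, the mannose receptor CD206, at 92.1, 94.6, 95.5 and 101 CPM against 3.07, 3.35, 2.84 and 4.36 CPM. All 5 monocyte markers were higher (median 5.08), with Ccr2, a chemokine receptor of circulating monocytes, at 21.1, 16.5, 18.4 and 15.1 CPM against 0.414, 0.748, 0.301 and 0.63 CPM. The monocyte list summed to only 0.468 to 1.21 CPM in cortex. The neutrophil list had the highest median of all cell type lists (6.85, 10 of 10 higher), and its sum was 57.7, 129, 172 and 166 CPM in CD11b+ preparations and 1.51 to 2.46 CPM in cortex. Genes this low in cortex can pass the filter on low counts through the CD11b+ libraries alone, which largely sets their direction. The counts of higher members in the monocyte and neutrophil lists are therefore no support, and their medians rest on cortical values near the floor. S100a9, a subunit of the granulocyte protein calprotectin, was 17.4, 36.8, 47.5 and 39.1 CPM against 0.341, 0.214, 0.134 and 0.0504 CPM, and its partner S100a8 and the granule gene Ngp were higher too (log2FC 7.29 ± 0.51 and 6.99 ± 0.56). Mouse 331 was lowest in all 3. Of 15 lymphocyte genes, 10 could be tested, of which 7 were higher. Among them, Ighm, the heavy chain of IgM, was 6.92-fold higher, whereas Cd4 was lower, at 2.61, 4.06, 2.56 and 2.97 CPM against 21.6, 4.13, 10.9 and 17.1 CPM (log2FC -2.14 ± 0.43). Red cell genes were higher in 5 of 5 (median 1.93), although none was called with all 24 female libraries in 1 fit and 0 of 5 in A+/ki/ki mice. Of these genes 4 overlapped between the groups, and the sums of 209.7, 62.3, 94.6 and 30.4 CPM overlapped those of cortex (14.8, 20.5, 57.8 and 16.8 CPM).

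The TREM2 and PLCG2 pathway was higher as a whole. TREM2 binds lipids and lipoproteins, TYROBP and HCST carry its signal to SYK and PI3 kinase, and BTK, VAV1 and the adaptors LAT2 and BLNK work with PLCG2, which cleaves the membrane lipid PIP2 into the messengers IP3 and diacylglycerol. All 17 members were higher by 4-fold or more with no overlap, against 14.9% of all genes tested (median log2FC 4.63). Plcg2 (chr8:117498291-117635142, plus strand) was 160.0, 219.7, 208 and 224 CPM in the CD11b+ preparations and 8.23, 8.44, 8.5 and 7.16 CPM in cortex, 25.1-fold higher (log2FC 4.65 ± 0.14, adjusted p = 2.55e-09). The receptor Trem2 (chr17:48346401-48354147, plus strand) was 1147, 1782, 1385 and 1659 CPM and 72.3, 89.9, 69.7 and 57 CPM (20.7-fold), and Tyrobp 972, 1357, 1086 and 1174 CPM and 45.3, 59.4, 47.9 and 38 CPM (24.1-fold). Mouse 331 had the lowest and mouse 367 the highest Trem2 and Tyrobp among the CD11b+ preparations, which is also the order of their homeostatic sums at both ends.

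The kinases of the pathway differed little from these. Log2FC was 4.41 ± 0.18 for Syk, 4.77 ± 0.15 for the Src-family kinase Lyn and 5.07 ± 0.18 for Btk, the largest of the list. The phosphatases that oppose the signal were higher as well, Ptpn6 (SHP-1) by 4.66 ± 0.17 and Inpp5d (SHIP1), an Alzheimer risk gene, by 4.78 ± 0.18. Inpp5d was 438, 729, 665 and 686 CPM in CD11b+ preparations and 22.1, 24.9, 24.3 and 20.8 CPM in cortex. The catalytic PI3 kinase subunits stood apart from each other, with Pik3cg at 4.63 ± 0.21 and Pik3cd, the smallest of the list, at 2.80 ± 0.17, and cortex held 23.6, 25.1, 22.1 and 23.2 CPM of Pik3cd but 5.84, 8.41, 6.26 and 6.4 CPM of Pik3cg.

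The bases before the start of the genes were read from the RefSeq promoter table (GRCm38.p6). The PU.1 core GAGGAAGT, on either strand within 250 bases before the start, was in 118 of 1858 genes higher by 4-fold or more (6.35%), 32 of 2060 lower by 4-fold or more (1.55%), 372 of all 13058 tested genes with a promoter in the table (2.85%) and 802 of all 32851 promoters (2.44%). It was in 3 of 14 members of the TREM2 and PLCG2 list with a promoter in the table (Inpp5d, Pik3cg and Vav1), 1 of 11 general myeloid genes (C1qc) and 0 of 8 homeostatic markers. The cyclic AMP response element TGACGTCA was in 2 of 15 immediate early genes (Btg2 and Dusp1) and 2.8% of tested genes, with 1.67% of those higher and 2.52% of those lower by 4-fold or more. The AP-1 motif TGACTCA was in 6.14% of the genes higher and 4.9% of those lower by 4-fold or more, and 4.17% of tested genes. TTCAGCACC, the left part of the RE1 element, was in 0.323% and 0.728% of these, respectively, and 0.406% of tested genes. A match is a description of the letters and not a binding site. Shown are windows of 250 bases that end at the last base before the start, 5′ to 3′ on the strand of the gene with the match in capitals, for members of the TREM2 and PLCG2 pathway and complement whose matches lie at different distances, and for 1 immediate early gene. They are Inpp5d (chr1:87620062-87620311, plus strand), Vav1 (chr17:57278850-57279099, plus strand), C1qc (chr4:136892915-136893164, minus strand) and Dusp1 (chr17:26508473-26508722, minus strand), and their matches begin 20, 11, 195 and 143 bases before the start.
Inpp5d: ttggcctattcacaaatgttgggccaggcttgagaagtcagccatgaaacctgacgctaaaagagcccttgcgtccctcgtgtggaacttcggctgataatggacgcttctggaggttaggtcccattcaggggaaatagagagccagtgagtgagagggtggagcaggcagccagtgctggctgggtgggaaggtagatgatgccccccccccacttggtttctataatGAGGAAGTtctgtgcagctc
Vav1: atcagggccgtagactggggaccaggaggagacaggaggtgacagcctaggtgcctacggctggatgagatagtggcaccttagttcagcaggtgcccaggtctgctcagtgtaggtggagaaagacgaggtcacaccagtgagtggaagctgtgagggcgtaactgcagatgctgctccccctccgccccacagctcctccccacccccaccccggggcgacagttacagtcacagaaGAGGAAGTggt
C1qc: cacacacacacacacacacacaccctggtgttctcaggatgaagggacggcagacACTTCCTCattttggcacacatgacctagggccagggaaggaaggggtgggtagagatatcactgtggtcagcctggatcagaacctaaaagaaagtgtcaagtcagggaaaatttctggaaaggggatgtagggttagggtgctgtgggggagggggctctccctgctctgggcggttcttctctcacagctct
Dusp1: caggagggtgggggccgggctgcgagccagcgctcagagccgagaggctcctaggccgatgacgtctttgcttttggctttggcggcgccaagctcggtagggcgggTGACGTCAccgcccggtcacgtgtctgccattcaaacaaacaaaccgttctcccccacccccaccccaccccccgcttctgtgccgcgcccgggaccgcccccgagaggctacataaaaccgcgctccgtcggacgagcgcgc

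Vav1, a guanine nucleotide exchange factor, whose match begins nearest to the start, was 180.0, 277, 234 and 261 CPM in CD11b+ preparations and 8.69, 9.34, 7.09 and 7.41 CPM in cortex (log2FC 4.87 ± 0.17). C1qc, a chain of complement C1q with its match farther upstream, was higher by 4.98 ± 0.26, and Dusp1, a MAP kinase phosphatase with a cyclic AMP response element, by 3.37 ± 0.29. Exons of Dusp1 overlap Ergic1 on the other strand.

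The 14 phospholipase C genes went both ways. Beside Plcg2, Plcb2, an isoform of blood and immune cells that G proteins activate, was 98.8, 141, 126 and 147 CPM against 5.6, 6.38, 5.59 and 6.02 CPM (log2FC 4.44 ± 0.15). Plcb3 was higher by 2.46 ± 0.11 and the widely expressed Plcg1 by 0.86 ± 0.09. In contrast, Plcb1, the main isoform downstream of cortical muscarinic and metabotropic glutamate receptors, was 33.7, 19.6, 26.9 and 17.6 CPM against 207, 190.1, 211 and 239 CPM, 8.66-fold lower, and Plch1 (log2FC -2.71 ± 0.35), Plch2 (-1.75 ± 0.26), Plcd4, Plcd3 and Plcb4 were lower too. In all, 8 members were higher and 6 lower, against 37.7% and 40.2% of all genes tested. The smallest of these differences were those of Plcl1 (log2FC 0.30 ± 0.08), which is below the shift given by the scaling, and of Plce1 (0.57 ± 0.22), Plcb4 (-0.59 ± 0.14), Plcl2 (0.62 ± 0.13) and Plcd1 (0.74 ± 0.14). With the library totals alone Plcl1 turned to a log2FC of -0.07 and Plcl2 lost its call (0.26, adjusted p = 0.107), and 5 members were higher. Plce1 lost its call without each of CD11b+ mice 331 and 375 and cortical mice 236, 257 and 259 (adjusted p = 0.0662 to 0.114).

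**Figure D3:**
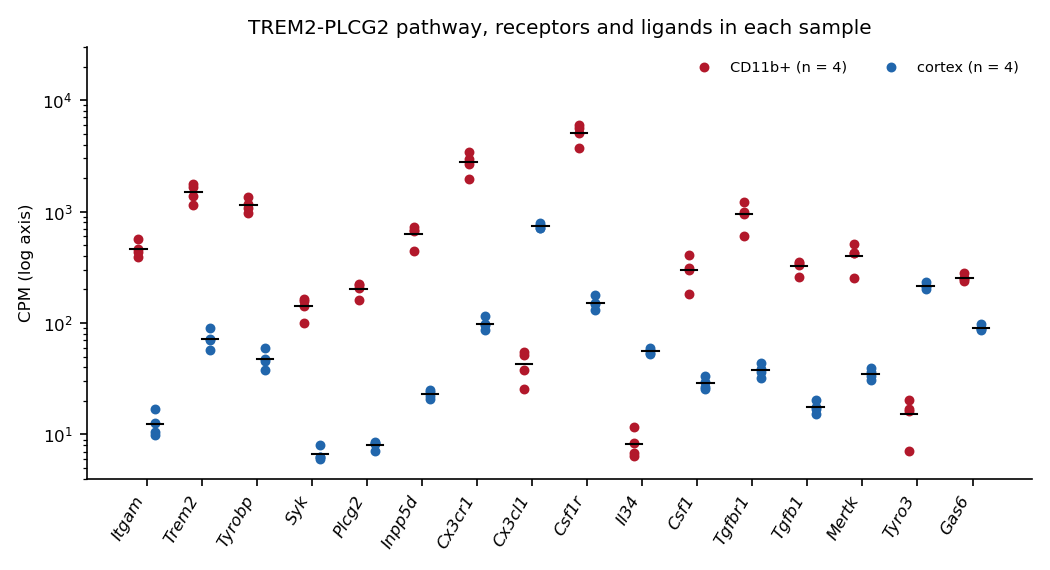
CPM (log y axis) of 16 genes of the TREM2 and PLCG2 pathway and of receptors and their ligands in the 4 CD11b+ preparations (red) and 4 cortices (blue), with group means as black lines. The receptors are higher in CD11b+ preparations except Tyro3, and of the ligands Cx3cl1 and Il34 are lower while Csf1, Tgfb1 and Gas6 are higher.

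Most receptors of microglia were higher, while their ligands went both ways. Of 13 receptors, 12 were higher (median log2FC 4.02), while of 12 ligands 7 were higher and 5 lower (median 1.45). Cx3cl1, the fractalkine that neurons present to Cx3cr1, was 55, 25.5, 51.9 and 38.2 CPM in CD11b+ preparations and 712, 761, 786 and 706 CPM in cortex, 17.4-fold lower. The 2 ligands of Csf1r lay apart, as Il34, the neuronal one, was 11.6, 6.34, 6.87 and 8.37 CPM against 53.6, 59.6, 57.7 and 52.7 CPM (log2FC -2.75 ± 0.17), and Csf1 183, 296, 311 and 411 CPM against 29.8, 33.4, 25.8 and 26.5 CPM (3.38 ± 0.23). Icam5, an adhesion molecule of dendrites that binds beta 2 integrins, was lower (log2FC -4.56 ± 0.24), as were Cd200, an inhibitory neuronal ligand (-1.90 ± 0.22), and Cd47, a signal against engulfment (-0.91 ± 0.09). Their receptors Itgb2 (4.99 ± 0.18), Cd200r1 (3.93 ± 0.27) and Sirpa (1.81 ± 0.19) were higher. Sirpa stood lowest among the higher receptors, and cortex held 419, 521, 454 and 432 CPM of it.

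For TGF-beta, ligand and receptors were higher together. Tgfb1 was 259, 351, 333 and 349 CPM against 16.8, 20.3, 17.7 and 15.3 CPM (18.4-fold), Tgfbr1 602, 1228, 952 and 994 CPM against 36.4, 43.4, 31.9 and 38.5 CPM (25.1-fold), and Tgfbr2 had a log2FC of 4.02 ± 0.17. Of the 15 genes of the TGF-beta list, 11 were higher (median 1.41), and Itgb8, an integrin chain that activates latent TGF-beta, was lower at 42.1, 19, 32.8 and 25.6 CPM against 51.7, 55.6, 52.2 and 66.5 CPM. With all 24 female libraries in 1 fit Itgb8 lost its call (adjusted p = 0.0547). The TAM receptors, which bind phosphatidylserine on dying cells through GAS6 and PROS1, divided by member. Mertk was 253, 515, 423 and 421 CPM against 30.6, 39.3, 33.5 and 36.5 CPM (11.5-fold higher) and Axl was 6.84-fold higher, but Tyro3 was 20.5, 7.13, 16.2 and 16.8 CPM against 215, 234, 217 and 202 CPM, 14.3-fold lower. The bridging ligands Gas6 (log2FC 1.49 ± 0.10) and Pros1 (4.02 ± 0.15) were both higher.

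Genes of disease-associated microglia were higher in 27 of 27, 7 of stage 1 (median 3.98) and 20 of stage 2 (median 3.53). All of these mice carried the transgenes, so that the values say nothing of amyloid itself. Within stage 2 the spread was wide. Itgax (CD11c) was 205, 552, 506 and 676 CPM against 9.93, 28.2, 14.7 and 15.3 CPM (log2FC 4.83 ± 0.43), with mouse 331 far below the others, whereas Cadm1, a cell adhesion gene, reached 0.45 ± 0.18 and overlapped between groups at 157, 279, 229 and 265 CPM against 136, 193, 167 and 184 CPM. The call of Cadm1 was lost without any 1 of 6 libraries, CD11b+ mice 367, 375 and 380 and cortical mice 236, 259 and 329 (adjusted p = 0.0584 to 0.125). It was also lost with the library totals alone (log2FC 0.09, adjusted p = 0.659). Apoe, the main lipoprotein of the brain and lowest of stage 1, was 7601, 7301, 7724 and 9223 CPM against 1957, 1927, 1758 and 1431 CPM (4.5-fold), and Lyz2, lysozyme of myeloid cells, was 24.8-fold higher.

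The lysosome list was higher in 27 of 27 (median log2FC 3.26). Its smallest difference was that of Psap, which encodes the saposins, at 3286, 4112, 3721 and 3881 CPM against 1431, 1498, 1487 and 1371 CPM, and Ctsd (cathepsin D) was 15.8-fold higher. In lipid handling the parts went in different directions. For lipoprotein and cholesterol transport 11 of 17 were higher, led by Npc2, which moves cholesterol out of lysosomes (3.56 ± 0.13), and 6 were lower, with Vldlr, a lipoprotein and reelin receptor, at -2.80 ± 0.18 and Clu (clusterin) at -1.35 ± 0.27. All 18 genes of cholesterol synthesis were lower with no overlap between groups, against 37.5% of all genes tested (median -1.12). Hmgcs1, an early enzyme of the mevalonate pathway, was 80.7, 53.6, 63.5 and 64.7 CPM against 198, 248, 229 and 207 CPM, and Srebf2, the transcription factor that activates the pathway, was lower (log2FC -1.13 ± 0.09). The smallest difference, that of Dhcr7 (-0.31 ± 0.12), is below the shift given by the scaling and lost its call without each of CD11b+ mouse 375 and cortical mice 236, 257 and 259 (adjusted p = 0.0557 to 0.0854).

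Immune genes were higher with few exceptions. In the complement list 14 of 18 tested members were higher and none lower (median 4.64), and the 3 chains of C1q, C1qa, C1qb and C1qc, were higher by 29-, 32.6- and 31.6-fold. Reads of C4b can also match its near-identical copy C4a. C4b did not pass the test at 166, 114, 135 and 119 CPM against 162, 165, 171 and 147 CPM (adjusted p = 0.0736), but was lower without CD11b+ mouse 331 (log2FC -0.40, adjusted p = 0.00358). All 17 MHC genes were higher (median 4.28), from H2-DMa, which loads peptides on class II (2.78 ± 0.22), to the class II chain H2-Ab1, at 217, 222, 196 and 263 CPM against 5.01, 5.06, 4.01 and 7.91 CPM. B2m, the light chain of class I, was 19.6-fold higher. All 19 interferon response genes were higher (median 3.49), with Ifi204, a DNA sensor, at 5.67 ± 0.16 and Stat2, a signal transducer of interferon receptors, at 1.65 ± 0.09. All 19 genes of Toll-like receptors and the inflammasome were higher too (median 4.63), from Il18 at 0.48 ± 0.11 to Il1b, whose exons overlap Il1bos on the other strand, at 46.3, 69.2, 46.3 and 85.3 CPM against 0.268, 0.392, 0.569 and 0.328 CPM. With the library totals alone Il18 lost its call (log2FC 0.12, adjusted p = 0.385). Among the chemokines 11 of 13 were higher, Ccl3 by 78.5-fold, and beside Cx3cl1 only Cxcl14 was lower (-1.55 ± 0.24).

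Immediate early genes, which are transcribed within minutes of a stimulus, also mark enzymatic dissociation of tissue, and their part from isolation was not tested. Of 19 members, 16 were higher (median 3.29). Jun was 899, 1218, 1058 and 1056 CPM in CD11b+ preparations and 41.1, 52.3, 43.9 and 43.9 CPM in cortex, and Fos 531, 959, 630.1 and 573 CPM against 34.1, 44.3, 33 and 25.5 CPM. Egr1 was higher by only 1.24 ± 0.13. In contrast, Npas4, Arc and Egr3, which are induced by neuronal activity, were lower. Npas4 was 0.954, 0.42, 1.81 and 2.1 CPM against 20.6, 30.9, 19.7 and 16.6 CPM, Arc 38.5, 16.4, 7.55 and 19.9 CPM against 180.2, 226, 151 and 84.1 CPM and Egr3 17.2, 17.1, 21.9 and 27 CPM against 122, 148, 166 and 151 CPM. They were lower with no overlap between the groups, as were 37.5% of all genes tested. Of 9 heat shock genes 4 were higher and 5 lower. Hspa1a, the inducible HSP70, was 7.58, 73.2, 16.7 and 35.4 CPM against 9.2, 10.4, 12 and 7.13 CPM, where mouse 331 lay within the range of cortex and mouse 367 far above it, and Hsph1, a co-chaperone, was lower (log2FC -2.68 ± 0.17). Genes of the cell cycle were higher in 15 of 15 (median 2.16), with the mitotic kinase gene Cdk1 at 5.02, 6.25, 6.06 and 7.23 CPM against 0.39, 0.641, 0.368 and 0.302 CPM and Pcna, a DNA replication clamp, at 1.14 ± 0.10.

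Among 18 genes of amyloid precursor processing, 6 were higher and 10 lower (median -1.04). App (chr16:84949685-85173766, minus strand), whose counts can include reads of the chimeric transgene, was 1160, 729, 993 and 942 CPM in CD11b+ preparations and 2954, 3324, 3461 and 3298 CPM in cortex, 3.41-fold lower (adjusted p = 1.57e-06). Prnp (chr2:131909928-131938429, plus strand), the gene of the prion protein, was 422, 175, 281 and 236 CPM against 2303, 2780, 2481 and 2361 CPM, 8.91-fold lower. Its promoter drives the transgenes, and whether its counts include transgene reads was not tested. The beta-secretase Bace1 was 4.01-fold lower and the alpha-secretase Adam10 higher, at 184, 266, 252 and 221 CPM against 61.9, 74, 67.9 and 72.5 CPM (log2FC 1.74 ± 0.13).

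The subunits of gamma-secretase were not on 1 side. Ncstn (nicastrin, 1.70 ± 0.15), Aph1a (1.44 ± 0.09), Psen2 (0.64 ± 0.13) and Psenen (0.63 ± 0.12) were higher. With the library totals alone Psen2 (log2FC 0.28, adjusted p = 0.0847) and Psenen (0.27, adjusted p = 0.0612) lost their calls. Aph1b was lower (-1.62 ± 0.14). Of the proteases that degrade amyloid-beta, Mme (neprilysin) was 0.954, 0.606, 0.999 and 0.648 CPM against 19.9, 9.51, 13.7 and 20.1 CPM, 19.8-fold lower, Ece1 was higher (0.87 ± 0.16) and Ide did not pass the test (log2FC 0.17, adjusted p = 0.509). Of 27 Alzheimer risk genes 22 were higher, Cd33, an inhibitory sialic acid receptor, the most (5.18 ± 0.25). The 5 lower ones were Ptk2b, a calcium-activated kinase (-1.59 ± 0.14), Sorl1, a sorting receptor of APP (-1.47 ± 0.21), Clu, Tmem106b, a lysosomal membrane protein (-0.68 ± 0.12), and Mef2c, a transcription factor of neurons and microglia, at 193, 377, 355 and 323 CPM against 386, 567, 498 and 444 CPM. Without cortical mouse 257 Mef2c lost its call (log2FC -0.51, adjusted p = 0.0529). It was also the only one of 15 myeloid transcription factors that was lower, while 14 were higher (median 3.88), with Irf5 at 4.75 ± 0.17.

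Genes of purinergic and adenosine receptors and of enzymes of their ligands likewise differed by member. Of 14, 8 were higher and 4 lower, against 37.7% and 40.2% of all genes tested. Beside P2ry12, P2ry13 was higher by 4.72 ± 0.22, Entpd1 (CD39), which hydrolyses extracellular ATP, by 4.47 ± 0.19 and the adenosine receptor Adora3 by 4.82 ± 0.24. Adora2a was 6.88, 3.73, 4.68 and 4.16 CPM against 119, 32.3, 75 and 93.7 CPM, and Adora1 (-1.51 ± 0.15), Adora2b (-1.12 ± 0.32) and Nt5e (CD73), which makes adenosine from AMP (-2.26 ± 0.32), were lower. Of 17 potassium channel genes 4 were higher, namely Kcnk6 (4.51 ± 0.18), Kcnk13 (1.81 ± 0.17), Kcnn4 (3.28 ± 0.35) and Kcnj2 (2.29 ± 0.28), and 10 were lower, with Kcnc2 of fast-spiking neurons at 3.31, 2.89, 3.62 and 2.65 CPM against 77.6, 101, 77.1 and 87.6 CPM. Kcnk13 encodes THIK-1, a channel of surveying microglia.

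Neuronal RNA was depleted but not absent. All 17 general neuronal genes, 10 of excitatory cortical and 10 of inhibitory neurons were lower, with medians of -4.22, -3.59 and -4.40, and so were 21 of 21 glutamate and 12 of 12 GABA-A receptor subunits (medians -4.26 and -4.17). The summed neuronal genes were 1101, 562, 978 and 830.2 CPM in CD11b+ preparations and 11590, 11960, 12140 and 11690 CPM in cortex, which is 7.33% of the cortical level. Snap25, a synaptic SNARE protein, was 218, 102, 164 and 150.4 CPM against 2249, 2342, 2507 and 2163 CPM (14.6-fold lower) and Syt1, the calcium sensor of vesicle release, 35.8-fold lower. Of 14 genes of synaptic vesicle release 13 were lower, and Rims1, a protein of the active zone, was higher by 0.48 ± 0.17 at overlapping values of 497, 299, 476 and 537 CPM and 284, 359, 333 and 322 CPM. Rims1 lost its call without each of CD11b+ mice 375 and 380 and cortical mice 236, 259 and 329 (adjusted p = 0.0535 to 0.0808). It also lost its call with the library totals alone (log2FC 0.11, adjusted p = 0.55) and with all 24 female libraries in 1 fit (adjusted p = 0.569).

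The CD11b+ cells came from the whole brain, and markers of regions outside the cortex went both ways. Cerebellar genes had 5 of 9 members higher. Gabra6, a GABA-A subunit of granule cells, was 10.2, 3.64, 9.05 and 8.15 CPM against 0.0243, 0, 0 and 0.151 CPM and Cbln3, a synaptic protein of the same cells, 47.1, 18.1, 34.1 and 42.9 CPM against 0.317, 0.463, 0.234 and 0.58 CPM, with mouse 367 lowest in both. Calb1 of that list, which cortical interneurons also express, was lower (-5.13 ± 0.16). All 8 striatal genes were lower (median -5.71). Penk, the proenkephalin gene of striatal projection neurons, was 1.91, 2.19, 5.24 and 2.86 CPM in CD11b+ preparations and varied in cortex, at 391, 148, 265 and 360.2 CPM, and Adora2a varied with it, so that mouse 257 had the lowest and mouse 236 the highest value in both. The summed striatal genes ranged from 656 to 2046 CPM across the cortices, and the part of the dissection in this spread was not tested. Of 7 tested midbrain and diencephalic genes 5 were lower, with Slc17a6, the vesicular glutamate transporter VGLUT2, at -4.24 ± 0.23, while Prkcd, a protein kinase C that myeloid cells also express, was higher by 4.36 ± 0.15 and Tcf7l2 by 1.26 ± 0.14.

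**Figure D4:**
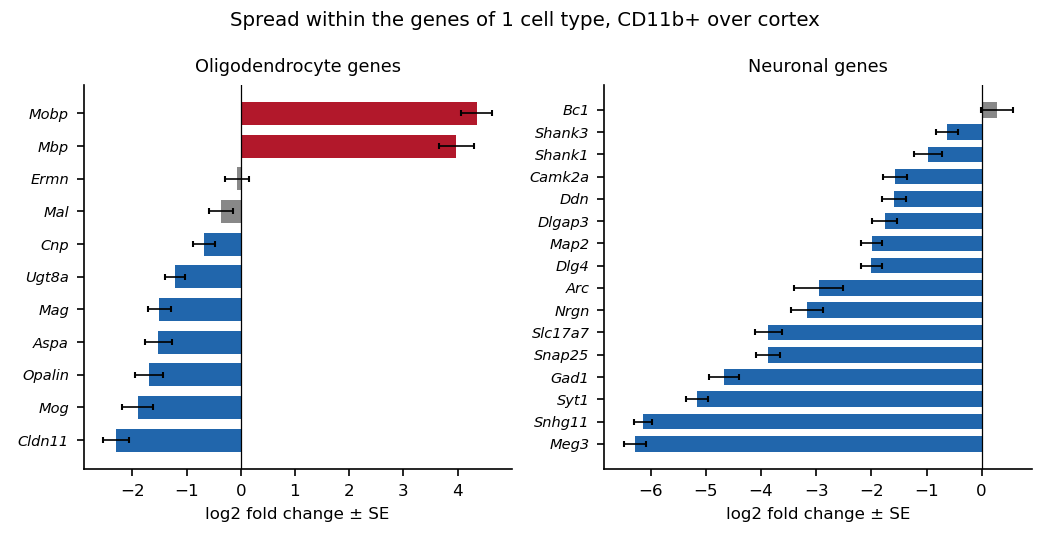
Log2 fold change of CD11b+ over cortex with its SE (x axis) for 11 oligodendrocyte genes (left) and 16 neuronal genes (right), red where higher, blue where lower and grey where not called. Mobp and Mbp are the only oligodendrocyte genes that are higher, and among neuronal genes the values run from -6.29 (Meg3) to 0.28 (Bc1).

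Genes of 1 cell type did not move together. Mbp, the myelin basic protein gene, was 40110, 16330, 35980 and 29240 CPM in CD11b+ preparations and 2514, 1815, 2042 and 1346 CPM in cortex, 15.8-fold higher (log2FC 3.98 ± 0.32, adjusted p = 7.46e-07), and Mobp, another myelin protein gene, 14520, 6646, 13460 and 10320 CPM against 704, 488, 567 and 441 CPM, 20.4-fold higher. Among the other 10 oligodendrocyte genes none was higher and 7 were lower. Cldn11, a tight junction protein of myelin, was 34.9, 15, 21.9 and 24.9 CPM against 146, 102, 133 and 94.3 CPM, 4.92-fold lower. The summed list was higher in CD11b+ preparations (57330, 24160, 50920 and 41430 CPM) than in cortex (3608 to 6040 CPM), although its median log2FC was -0.94. Mouse 331 was highest and mouse 367 lowest in both Mbp and Mobp. Mbp and Mobp mRNAs are known to be carried into the myelin processes and translated there, but whether this has a part in their levels here was not tested.

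The neuronal genes also spread widely, and the part of RNA location within the cell in this spread was not tested. Meg3, a long non-coding RNA of neuronal nuclei, was 18.2, 10.7, 15.3 and 17.1 CPM against 1202, 1085, 1168 and 1350 CPM, 78.4-fold lower, while Camk2a, whose mRNA is transported into dendrites, was 919, 541, 1190 and 843 CPM against 2363, 2959, 2521 and 2510 CPM, 2.96-fold lower. Camk2a lost its call with all 24 female libraries in 1 fit (adjusted p = 0.0547), as did Shank3 (adjusted p = 0.241), a scaffold of the postsynaptic density. After these values were seen, 10 transcripts known from dendrites were picked, and their counts support nothing. Of them 9 were lower, with a median of -1.68. Shank3 was 170.1, 92.7, 184 and 163 CPM against 247, 246, 196 and 252 CPM (log2FC -0.63 ± 0.19), Ddn (dendrin) 450.4, 222, 461 and 381 CPM against 1066, 1317, 1054 and 1123 CPM (-1.59 ± 0.21), and the short non-coding RNA Bc1 overlapped between the groups (0.28 ± 0.28, adjusted p = 0.384). Of 8 nuclear long non-coding RNAs picked in the same way, 6 were lower, among them Snhg11 (-6.14 ± 0.16), but Malat1 (2.32 ± 0.17) and Neat1 (2.20 ± 0.16), which most cell types express, were higher. Kif5a, a motor protein gene of neurons picked likewise, was higher at 10510, 5739, 10730 and 11010 CPM against 2563, 2764, 2732 and 2589 CPM. Map2, whose protein binds microtubules of dendrites, had the smallest log2FC of the 17 general neuronal genes (-1.99 ± 0.19).

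Astrocyte genes were lower in 13 of 17 (median -0.86), none of them by 4-fold, and in 7 with all 24 female libraries in 1 fit. Slc1a2, the main glutamate transporter, was 983, 432, 795 and 422 CPM against 1834, 2343, 1979 and 2332 CPM. S100b, a calcium-binding protein, was higher at 640.4, 217, 381 and 318 CPM against 157, 152, 156 and 119 CPM, and Glul (glutamine synthetase) was 1.3-fold higher. Glul lost its call with the library totals alone (log2FC 0.01, adjusted p = 0.952) and without each of CD11b+ mice 331 and 375 and any 1 of the cortices (adjusted p = 0.0522 to 0.101). The summed list of 8536, 3921, 5978 and 4056 CPM overlapped the 8436 to 9564 CPM of cortex through mouse 331 alone. Genes of reactive astrocytes were on both sides, with Gfap, the intermediate filament of astrocytes, 3.66-fold lower, the protease inhibitor gene Serpina3n 6.13-fold lower, Vim (vimentin) 3.47-fold higher, and Lcn2 (lipocalin 2), which neutrophils also make, at 4.07, 7.46, 10.7 and 10.8 CPM against 0.243, 0.499, 0.201 and 0.378 CPM. Of 10 genes of oligodendrocyte precursors 8 were lower (median -2.51), C1ql1 the most (-3.57 ± 0.33), and Cspg4 (NG2), which pericytes share, was higher by 0.80 ± 0.17.

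Vascular genes were higher. All 15 endothelial genes were higher by 4-fold or more (median 3.12), as were 15.2% of all genes tested. Flt1, a VEGF receptor, was 657, 409, 598 and 418 CPM against 43.3, 63.9, 39.5 and 56.5 CPM. Vwf, the von Willebrand factor, was higher by 3.52 ± 0.15 and Cldn5, the claudin of the blood-brain barrier, by 2.86 ± 0.28. All 9 mural cell genes were higher (median 1.57), and the smooth muscle genes Myh11 (4.94 ± 0.32) and Acta2 (4.36 ± 0.30) stood above the pericyte genes Rgs5 (1.65 ± 0.24) and Vtn (1.13 ± 0.25). In the list of choroid plexus and ependyma 7 of 11 were higher. Ttr, the transthyretin of the choroid plexus, was 2890, 604, 1388 and 2753 CPM against 69.5, 32.8, 8.16 and 61.8 CPM and varied within both groups, and Enpp2 (autotaxin) was 1406, 354, 769.7 and 1658 CPM against 201, 190.2, 181 and 184 CPM, again lowest in mouse 367. The other 4, genes of motile cilia such as Rsph1 (log2FC -0.57 ± 0.31, adjusted p = 0.116), did not pass the test, although Rsph1 was lower without CD11b+ mouse 331 (-0.83, adjusted p = 0.0257). Of 7 fibroblast genes 1 was higher, Col3a1 (0.81 ± 0.29), and 3 were lower, Slc6a13 the most (-1.65 ± 0.29). Col3a1 lost its call without each of CD11b+ mice 331 and 375 and cortical mice 236, 257 and 259 (adjusted p = 0.0549 to 0.0697). It also lost its call with the library totals alone (log2FC 0.44, adjusted p = 0.173).

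**Figure D5:**
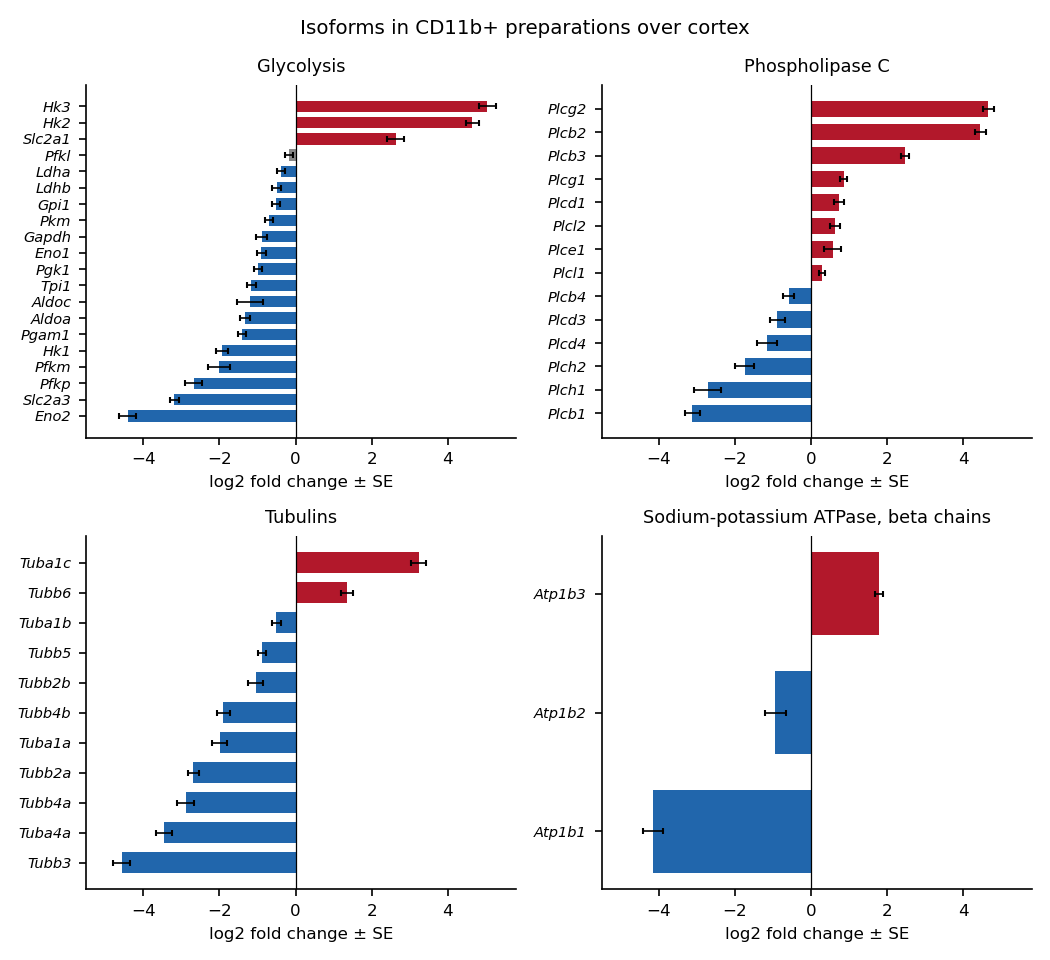
Log2 fold change of CD11b+ over cortex with its SE (x axis) for genes of 4 families (of the sodium-potassium ATPase, the beta chains), red where higher, blue where lower and grey where not called. In each family 1 to 8 genes are higher (Hk3, Hk2 and Slc2a1 in glycolysis, Atp1b3 of the sodium-potassium ATPase) while others are lower. Of all genes tested 37.7% were higher and 40.2% lower.

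Enzyme families showed isoforms on opposite sides, where of all genes tested 37.7% were higher and 40.2% lower. In glycolysis 16 of 20 genes were lower (median -0.94) and 3 were higher, which were the hexokinases Hk2 and Hk3 and the glucose transporter Slc2a1. Hk2 was 129, 218, 181 and 199.7 CPM in CD11b+ preparations and 7.11, 7.2, 7.56 and 7.36 CPM in cortex (24.9-fold) and Hk3 32.8-fold higher, although exons of Hk3 overlap Unc5a, a neuronal gene on the other strand. The common brain isoform Hk1 was lower (log2FC -1.93 ± 0.16). Of the glucose transporters Slc2a1 (GLUT1), which is also on the endothelial list, was 555, 289, 384 and 290.1 CPM against 57.7, 74.2, 54.1 and 59.7 CPM and the neuronal Slc2a3 (GLUT3) 14.3, 14.9, 15.3 and 18.6 CPM against 129, 148, 148 and 147 CPM, 9.09-fold lower. Eno2, the neuronal enolase, was 21.2-fold and Eno1 1.87-fold lower. The phosphofructokinases Pfkp (-2.67 ± 0.23) and Pfkm (-2.01 ± 0.28) were lower, while the liver-type Pfkl did not pass the test (-0.18 ± 0.11, adjusted p = 0.153). Gapdh (-0.89 ± 0.14), Pkm (-0.69 ± 0.11), Gpi1 (-0.51 ± 0.11), Ldhb (-0.50 ± 0.12) and Ldha (-0.38 ± 0.10) were lower by less than 1 log2 unit.

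For the sodium-potassium ATPase, which restores the ion gradients, the beta 3 chain Atp1b3 was 304, 399, 333 and 387 CPM against 108, 105, 104 and 96.7 CPM, 3.44-fold higher. The beta 1 chain Atp1b1 of neurons was 78.3, 31.3, 59.4 and 72.7 CPM against 1034, 1064, 1117 and 1093 CPM, 17.8-fold lower. Of 11 tubulins 9 were lower, with the neuronal Tubb3 at -4.57 ± 0.22, and Tuba1c, which has near-identical paralogues, and Tubb6 were higher, at 20.1, 18.2, 21.3 and 21 CPM against 1.85, 2.53, 1.51 and 2.67 CPM and 13.3, 13.2, 13.9 and 13.3 CPM against 5.21, 6.7, 4.08 and 5.14 CPM. Atp1b3, Atp1b1, Tuba1c and Tubb6 were called without overlap between the groups, as were 71.9% of all genes tested.

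RNA of organelles was higher in part. All 13 protein-coding genes of mitochondrial DNA were higher (median 2.08), and their sum was 126700, 76130, 150800 and 113800 CPM in CD11b+ preparations and 40370, 43570, 29970 and 36400 CPM in cortex. mt-Co1, a subunit of cytochrome oxidase, was 45930, 27810, 55190 and 42940 CPM against 16280, 17720, 12340 and 14510 CPM. The levels of mt-Co2 (19.7, 10.7, 20.4 and 15.1 CPM), mt-Co3, mt-Atp6 and mt-Atp8 were low in both groups. Only uniquely mapped reads were counted, so reads of these genes that also match nuclear copies of mitochondrial DNA are left out. Their values are uncertain. Of the 80 nuclear genes of the respiratory chain and ATP synthase, in contrast, 15 were higher and 40 lower (median -0.34), none by 4-fold, and this median is within the shift given by the scaling. Cytoplasmic ribosomal protein genes were higher in 79 of 81 tested (median 1.69). Rps29 was 1429, 1032, 1015 and 959.5 CPM against 96.7, 66.4, 91.2 and 71.4 CPM, and the 2 that did not pass the test were Rpl22l1 (log2FC -0.14, adjusted p = 0.237) and Rpl26 (1.51, adjusted p = 0.0976), which was higher without cortical mouse 329 (1.09, adjusted p = 0.00861). Reads of ribosomal protein genes can also match their many processed pseudogenes, and reads without a unique match were not counted.

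The largest falls, by the same rule as the rises, began with Trank1. It was 2.31, 1.35, 2.44 and 1.73 CPM in CD11b+ preparations and 428, 325, 235 and 468 CPM in cortex (187-fold lower, adjusted p = 4.75e-09). Next came Chrm4, a muscarinic receptor (-6.74 ± 0.36), Nwd2 (-6.74 ± 0.21), Kcnv1, a silent potassium channel subunit (-6.72 ± 0.19), Penk, Tac1, the precursor of substance P (-6.55 ± 0.49), the somatostatin receptor Sstr2 (-6.46 ± 0.36), Mir124a-1hg, a host of the neuronal miR-124 (-6.36 ± 0.30), Meg3 and Lrfn2, a synaptic adhesion molecule (-6.20 ± 0.22).

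Some genes had no count in any library of 1 group. In cortex these were led by Retnlg, a neutrophil gene, at 2.41, 3.45, 7.18 and 5.83 CPM in CD11b+ preparations, which was at least 218-fold higher, where the bound takes 3 counts over the 4 cortices as the floor and covers counting error only. Clec4e, a receptor for damaged cells and mycobacterial glycolipid, was at least 88.7-fold higher and Acod1, the enzyme of itaconate synthesis in activated macrophages, at least 62.5-fold. The unnamed loci Gm43534 and Gm42793 followed, the second of which overlaps Spp1 on the same strand. In the CD11b+ preparations Pcdha7, a clustered protocadherin of neurons, had no count and was at least 35.4-fold lower. The bounds were 82-fold for the locus Gm37773, 38.7-fold for Gm3985, 25.1-fold for Gm48485 and 24.7-fold for the meiotic gene Mei4.

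In A+/ki/ki mice, the same comparison on other libraries tested 18954 genes, of which 6978 (36.8%) were higher and 7539 (39.8%) lower in CD11b+ preparations. For Plcg2 itself, which carries the knock-in there, log2FC was 4.89 ± 0.20 beside 4.65 ± 0.14 in A+/wt/wt mice. Further pairs were 5.46 ± 0.17 and 5.22 ± 0.21 for Itgam, 4.50 ± 0.19 and 4.37 ± 0.20 for Trem2, 4.88 ± 0.23 and 4.64 ± 0.17 for Hk2, -4.70 ± 0.43 and -4.12 ± 0.23 for Cx3cl1, 3.37 ± 0.76 and 3.98 ± 0.32 for Mbp, and 8.74 ± 0.45 and 7.76 ± 0.21 for Zfp36, with A+/ki/ki first. All 13 homeostatic, 17 TREM2 and PLCG2, 17 MHC and 27 lysosomal genes were higher there too. In the border macrophage list the medians were 4.39 in A+/ki/ki and 4.45 in A+/wt/wt mice, but some lists of other cells and mitochondria lay farther apart. Medians were 1.32 in A+/ki/ki and 2.62 in A+/wt/wt mice for choroid plexus and ependyma, -1.74 and -0.86 for astrocytes, and 1.19 and 2.08 for mitochondrial DNA, of which 4 of 13 genes were called in A+/ki/ki mice.

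The A+/ki/ki values depended on 1 preparation. Without CD11b+ mouse 335 the median was 0.38 for choroid plexus and ependyma, -2.30 for astrocytes and 0.13 for mitochondrial DNA, with 1 of 13 mitochondrial genes called, and general neuronal genes reached -6.01. The homeostatic median was then 5.16 and that of the TREM2 and PLCG2 list 5.04, and all 13 and 17 genes were still higher. Differences between the genotypes in these lists were not tested. For single genes, the genotypes differed in the CD11b+ against cortex difference in 0 of 19942 genes by edgeR (0%, lowest adjusted p = 0.854), with 1018 genes at an unadjusted p under 0.05. The Wald test of DESeq2 called 2, Slc1a6, a glutamate transporter of Purkinje cells, and Fgf14, which modulates neuronal sodium channels (log2 difference of A+/ki/ki less A+/wt/wt mice -1.83 and -1.79, adjusted p = 0.0151 and 0.000863), both named after their values were seen. Without mouse 335 edgeR called 1619 genes, so that the count of 0 rests on this library.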

How the data were processed

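RNA of CD11b+ preparations and of temporo-occipital cortex was sequenced as paired-end oligo(dT) libraries. The values used are raw counts per gene, which the authors deposited after trimming, alignment to GRCm38 and counting of uniquely mapped reads in Gencode M25 genes (FastQC 0.11.7, Trimmomatic 0.39, STAR 2.7.9a, featureCounts 2.12.0 and R 4.2.2 in the submitters' processing notes). The variance-stabilized tables and the table of male mice were not used. The cortical and the CD11b+ tables were joined by gene identifier, with 55401 genes in both, and coordinates are those of Gencode M21. Reads were counted without regard to strand, and of the 218 genes named, 49 share exonic bases with a gene of the opposite strand.

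A gene was tested where 3 or more of the fitted libraries held 10 counts or more, with the quasi-likelihood F test of edgeR 4.0.16 (R 4.3.3) after TMM scaling, in place of the DESeq2 of the study, and p-values were adjusted by Benjamini-Hochberg over all genes tested (adjusted p under 0.05). A second rule asked in addition for 4-fold or more. Tests are two-sided, and the standard error is the log2FC divided by the root of F. The 18 alternatives for the main comparison were other scalings, filters and tests (DESeq2 1.42.0, limma 3.58.1), all 24 female libraries in 1 fit, and each library left out in turn. The A+/ki/ki comparison was also fitted without each library, which was chosen after seeing the data. The labels give separate mice, no pair of libraries was identical, and totals of 18918255 to 35834785 counts set the counting error, which limits genes of a few counts.

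The members and the 55 lists were chosen with earlier results of these data known, and 2 of the lists (mRNAs carried into dendrites and nuclear long non-coding RNAs) after the values here were seen. Named genes are Itgam, Plcg2, Trem2, App and Prnp. Some members of the lists are not reported here. Also named are the 10 largest rises and falls among called genes without overlap, with a mean of at least 20 CPM in the higher and 10 counts in the lower group, and the 5 highest genes with 0 counts in the other group. From each list come the 3 highest in CPM, the extremes and those called against the median, and any member of 7 lists (glycolysis, sodium-potassium ATPase, amyloid precursor processing, TREM2 and PLCG2 signalling, phospholipase C, ligands and receptors). Bc1, Btg2, Ddn, Dusp1, Fos, Kif5a, Malat1, Neat1, Rps29, Rpl26, Rpl22l1, Shank3, Snhg11, mt-Co2, mt-Co3, mt-Atp6 and mt-Atp8 were named after their values were seen. Promoter windows came from RefSeq (GRCm38.p6) by gene symbol.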

Additional observations from a re-analysis of the deposited data

Results flagged for a closer look

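A library is given here where, within its group of 4, its gap to the nearest other library is beyond the 95% limit of Dixon's test for the share of the group's range. Of 546 groups of list sums and named genes, 22 held such a library, where chance flags about 1 in 20, or 27.3, and groups that share genes are not independent. CD11b+ mouse 331 was the library in 9 of them.

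In CD11b+ mouse 331 the genes of Toll-like receptors and the inflammasome summed to 1100 CPM (others 1570 to 1610), Spi1 was 182 CPM (219 to 224), Tgfbr2 447 CPM (623 to 647) and Pik3cg 107 CPM (182 to 191), which is on the side of its low homeostatic sum. The smooth muscle genes Acta2 at 229 CPM (113 to 122) and Myh11 at 159 CPM (95.8 to 106), the fibroblast transporter gene Slc6a13 at 6.17 CPM (2.16 to 2.81), the neuronal gene Nwd2 at 0.602 CPM (0.312 to 0.326) and Rps29 at 1430 CPM (959 to 1030) were highest there. CD11b+ mouse 367 stood apart with Btg2, an immediate early gene, at 705 CPM (558 to 582) and Kif5a at 5740 CPM (10500 to 11000), and mouse 375 with Slc17a6 at 2.0 CPM (1.19 to 1.31).

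Among the cortices, mouse 329 had sums of 4270 CPM for DAM stage 1 (others 5380 to 5530), 601 CPM for phospholipase C (569 to 573) and 120 CPM for the interferon response (101 to 104). It also had S100b at 119 CPM (152 to 157) and Gabra6 at 0.151 CPM (0 to 0.0243). Mouse 259 stood apart with red cell genes at 57.8 CPM (14.8 to 20.5) and Shank3 at 196 CPM (246 to 252), mouse 236 with Eno1 at 877 CPM (785 to 795) and Slc2a3 at 129 CPM (147 to 149), and mouse 257 with Syk at 8.09 CPM (6.05 to 6.32).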

How the results depend on the processing

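No paired analysis was possible because the CD11b+ preparations and cortices of A+/wt/wt mice share no mouse number. A test against a log2FC of 1 in place of 0 left 4051 genes higher and 4220 lower, which its construction gives. Leaving out 1 library, 6599 to 6979 genes were higher and 6990 to 7574 lower, and 2678 to 2825 and 2925 to 3288 by 4-fold or more. In A+/ki/ki mice 6497 to 7307 were higher and 6872 to 8093 lower. The other settings kept all 4 counts of the A+/wt/wt comparison within 1.5 times, with library totals alone at 5435 higher and 9127 lower. The difference between genotypes was called in 2 genes by DESeq2 and in 0 to 1619 genes with 1 library left out, where the 1619 came without CD11b+ A+/ki/ki mouse 335 and each other fit gave 0.

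No list median changed sign under any of the 18 alternatives. With all 24 female libraries fitted, none of the red cell genes was called and 7 astrocyte genes were lower, and limma-voom called 3 midbrain genes lower. With library totals alone, 5 phospholipase C isoforms and 5 respiratory chain genes were higher. Among the genes named, Plcl1 turned to -0.068 and Bc1 to -0.11 with library totals alone. The cause was not tested. With library totals alone 10 named genes lost their call, with 1 library left out 7, with the test against a log2FC of 1 36, and with the remaining settings 8. Depth limits genes of a few counts.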
